A study of Homo sapiens with 12 samples.

Results

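The comparison set the mean of 2 siRNAs against all NFYA transcripts, named siTotal1 and siTotal2, against mock transfection without any siRNA. It used 6 of the 12 libraries of the study (2 of mock, 2 of siTotal1 and 2 of siTotal2), and its members were the 17730 genes, of 63677 listed, that passed a filter on low counts. Within them, attention went to genes that each siRNA alone moved in the same direction. All groups were HCT116 cells, a line established from a human colon carcinoma. The mock cultures received the lipid transfection reagent alone, the siTotal1 and siTotal2 cultures 62.5 nM of 1 siRNA sequence each, and the siControl cultures, set beside them here, 62.5 nM of a non-targeting siRNA. Cells were seeded at 25000 per well and collected 72 h after transfection, and mRNA was selected by its poly(A) tail for strand-preserving libraries. The other 4 libraries carried siRNAs to the long NFYA transcripts and entered only the estimate of the spread. Each group is described as a biological duplicate, so the p-values measure the spread between 2 libraries of a group in 1 cell line, and not the spread between siRNA sequences.

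NF-Y is a transcription factor built from the subunits NFYA, NFYB and NFYC. NFYB and NFYC form a histone-like dimer, and NFYA joins it and reads the CCAAT box, a promoter element found just upstream of the start of many housekeeping, cell cycle, metabolic and chaperone genes. In proliferating cells NF-Y is best known for its part in the transcription of genes for DNA replication, mitosis, lipid synthesis and nucleotide synthesis.

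The siTotal sequences are shown because the whole comparison rests on them. The labels list 2 sense strands of 19 bases without saying which belongs to siTotal1. Each is given here as the guide strand that pairs with NFYA, 5′ to 3′, with guide bases 2 to 8, the seed, in capitals.
Guide of the sequence listed first: uUUCCCUUcugccucuagu
Guide of the sequence listed second: aAAUCGUCcaccuucacca
The matching sense strands were acuagaggcagaagggaaa and uggugaagguggacgauuu. Both matched NFYA coding sequence on chromosome 6 of GRCh38, plus strand: the first at 41093049 to 41093067, in exon 8 of 10 of ENST00000341376.10, and the second at 41094443 to 41094461, in exon 9.

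NFYA itself (ENSG00000001167, chromosome 6, 41072945 to 41099976) was measured at 55.2 and 59.2 CPM (read counts scaled to a common library size by the trimmed mean of M-values, TMM) in the mock libraries, at 47.9 and 46.8 in siTotal1 and at 46.01 and 46.2 in siTotal2. All 4 siTotal libraries were below both mock libraries, and the siControl libraries, at 57.4 and 57.5, lay between the mock values. NFYA fell by 0.29 on the log2 scale (SE 0.04, adjusted p = 1.2e-06 by edgeR's quasi-likelihood test with Benjamini-Hochberg adjustment over all tested genes), to 0.817 of the mock level. The siRNAs lowered NFYA by 0.27 (siTotal1) and 0.31 (siTotal2), and the difference between them was 0.04 (SE 0.05, adjusted p = 0.58). Fewer NFYA transcripts in every cell and a stronger loss in part of the cells cannot be told apart in RNA from whole cultures.

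The partner subunits rose while NFYA fell. NFYB (chromosome 12, 104117077 to 104138289) was at 33.6 and 33.8 CPM in mock, at 31.5 and 33.6 in siControl, at 59.3 and 57.5 in siTotal1 and at 52.6 and 52.8 in siTotal2. NFYC (chromosome 1, 40691648 to 40771603) was at 57.1 and 58.9 CPM in mock, at 55.95 and 55.01 in siControl, at 101 and 95.9 in siTotal1 and at 86.1 and 83.3 in siTotal2. For both genes all 4 siTotal libraries were above all mock and siControl libraries. NFYB rose 1.65-fold (log2 0.72, SE 0.05, adjusted p = 6.7e-14) and NFYC 1.57-fold (log2 0.65, SE 0.04, adjusted p = 1.5e-14). Both rose further with siTotal1 than with siTotal2, by 0.15 for NFYB (adjusted p = 0.027) and by 0.22 for NFYC (adjusted p = 0.00029).

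**Figure D1:**
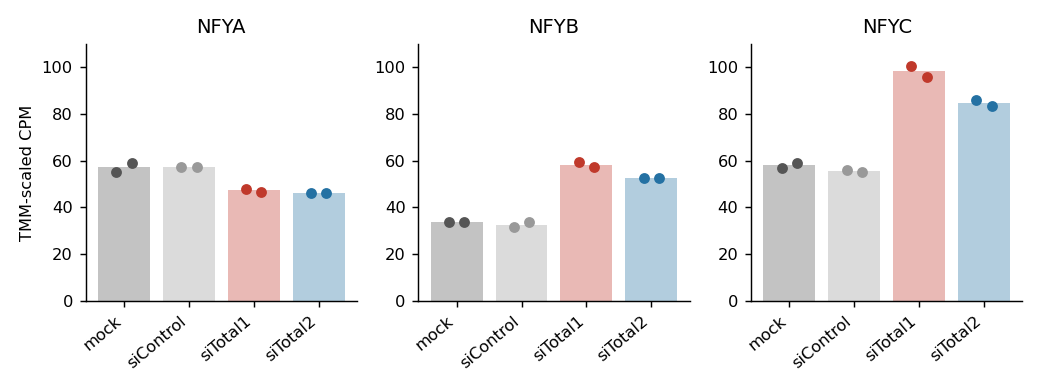
NFYA, NFYB and NFYC in mock, siControl, siTotal1 and siTotal2. Points are single libraries and bars their mean of 2, in TMM-scaled CPM on an axis from 0. NFYA sits lower and NFYB and NFYC higher in all 4 siTotal libraries than in the mock libraries.

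Total counts ran from 35758539 to 49746637 reads per library over these 8 libraries, with the mock libraries deepest at 49746637 and 41649949. Of 7 colon epithelial markers 6 were well counted, and VIL1, of the intestinal brush border, had 1 to 5 reads. EPCAM, the epithelial adhesion molecule, held 5925 and 5868 reads in siTotal1 against 9346 and 9471 in siTotal2 and 12266 and 10841 in the deeper mock libraries. These reads are not scaled to depth, and the siTotal2 libraries held 35758539 and 38246541 reads in total, so siTotal2 and mock cannot be compared by them directly. Blood markers summed to 27 to 47 reads per library. Of 10 fibroblast markers, COL1A1 was counted in all 8 libraries (966 to 1864 reads), and the other 9 summed to 494 reads in mock replicate 1, to 221 and 118 in siTotal2, and to 8 to 23 in the other 5. DCN, a proteoglycan of fibroblasts, had 106 reads in mock replicate 1, 92 and 51 in siTotal2, and 0 or 1 elsewhere.

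Over all tested genes, 2939 (16.6%) were higher and 2516 (14.2%) lower in siTotal than in mock at an adjusted p under 0.05, a gene so counted being named called below. Most changes were small: 162 genes rose and 67 fell by 2-fold or more. The root mean square log2 fold change among genes with a mean log2 CPM of at least 1 was 0.225. Between the 2 single libraries of a group it was 0.126 for mock, 0.164 for siTotal1 and 0.134 for siTotal2. The first value compares fitted groups and the others compare single libraries, so they are not on the same scale. Taken alone against the same mock libraries, siTotal1 called 3927 genes higher (22.1%) and 3323 lower (18.7%), siTotal2 called 2494 higher (14.1%) and 2242 lower (12.6%), and the non-targeting siControl called 3601 higher (20.3%) and 3464 lower (19.5%). These comparisons share the mock libraries, and having received an siRNA of any sequence cannot be told apart from losing NFYA in a comparison with mock alone. For that reason the siControl value against mock stands beside most genes below.

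The calls depend on what counts as a replicate. When each siRNA sequence was taken as 1 replicate, its 2 libraries summed, edgeR called 0 genes (1491 had an unadjusted p under 0.05), while DESeq2 called 89 (1118 had an unadjusted p under 0.05). Without mock replicate 1, 1759 genes were higher, of which 1690 were among the 2939.

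Each siRNA alone raised 1023 of the tested genes (5.77%) and lowered 828 (4.67%) against mock. Of these, 55 were higher by at least 2-fold with each siRNA and 9 were lower by as much, and the median of the smaller of the 2 log2 fold changes was 0.244 among the rises and 0.208 among the falls. The siRNAs differed from each other in size in 422 of the 1023 and 279 of the 828. With mock replicate 1 left out, 565 genes were higher with each siRNA. Requiring the same direction against siControl too, in all 4 single contrasts, left 435 genes higher (2.45%) and 325 lower (1.83%), or 256 higher without mock replicate 1. These counts describe the rule, since the contrasts share libraries.

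**Figure D2:**
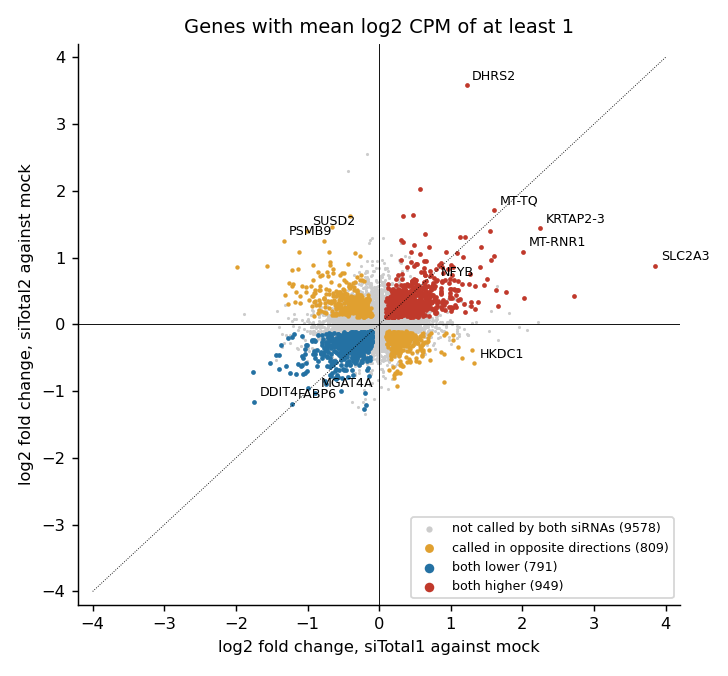
Log2 fold change against mock for siTotal1 (horizontal) and siTotal2 (vertical), for the 12127 genes with a mean log2 CPM of at least 1. Red points (949) were higher and blue points (791) lower with each siRNA, orange points (809) went opposite ways, and the dotted line marks equal change. Both axes use the same 2 mock libraries.

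Promoter sequence around the start of some of the genes described below is shown because NFYA reads CCAAT. The stretches come from the RefSeq promoter table (GRCh38.p14), read along the gene's strand, with the CCAAT box, or ATTGG where it lies on the other strand, in capitals. Distances are to the start given in RefSeq, which can differ from the GENCODE gene bounds printed in this text. The GASK1B stretch, for example, lies inside the bounds printed for that gene. NFYC and GASK1B rose and RIMKLA and SLC19A2 fell against both controls, and DDIT4, PROM1, RRM2 and MTHFD2 are examples from gene lists described further on.
NFYC, chr1:40691596-40691620, plus strand, 98 bases before the start: tcgccccttcCCAATtctcgcgaga
GASK1B, chr4:158173066-158173090, minus strand, 55 before: caaaaaacctCCAATcagagagaat
RIMKLA, chr1:42380722-42380746, plus strand, 60 before: ccgcgcgctgATTGGctggcggggc
SLC19A2, chr1:169486053-169486077, minus strand, 97 before: tgacccacgaCCAATggaagagcag
DDIT4, chr10:72273839-72273863, plus strand, 75 before: ccgggtctggATTGGgtcgtggcgc
PROM1, chr4:16084062-16084086, minus strand, 53 before: ctcagccggtCCAATcagagtgcgt
RRM2, chr2:10122663-10122687, plus strand, 66 before: ggcaccaaagCCAATgggaagggcc
MTHFD2, chr2:74198531-74198555, plus strand, 74 before: gcggcagggaCCAATgggtggcgga
These were chosen for having the motif: of 84 genes named by rule that have a promoter in the table, 31 had it in this window.

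CCAAT on either strand, starting 120 to 40 bases before the start, was present in 28.5% of the promoters of genes lower with each siRNA (178 of 624 with a promoter in the table) and in 19.7% of those higher with each (157 of 798). Over all 11495 tested genes with a promoter the share was 21.0%, and over the whole table of 27305 promoters 17.8%. Anywhere from 250 bases before to 50 after the start, the shares were 44.1%, 35.7%, 36.5% and 35.7% in the same order. Among the genes that also went the same way against siControl, 30.4% of those lower and 17.5% of those higher had CCAAT in the nearer window. Seen from the promoters, 20.0% of the 2409 genes with CCAAT there were lower in siTotal and 18.9% higher, against 15.4% and 20.0% of the 9086 genes without. The median log2 fold change was -0.005 with CCAAT and 0.011 without. Taken by siRNA, it was -0.021 with and 0.019 without for siTotal1, but 0.01 with and 0.008 without for siTotal2. For siControl it was -0.004 with and 0.001 without. These are matches of 5 letters and not measured binding.

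The 7-base word that pairs with an siRNA's seed was counted in annotated 3′ untranslated regions, since an siRNA can lower transcripts by seed pairing alone. The word of the first listed sequence, AAGGGAA, was found in 2631 genes (20.1% of those with an annotated region), whose median log2 fold change was -0.031 with siTotal1 and 0.026 with siTotal2, against 0.025 and 0.002 in genes without the word. The word of the second, GACGATT, was found in 195 genes (1.49%), whose median was 0.058 with siTotal1 and -0.1 with siTotal2, against 0.014 and 0.007 without it. Genes with either word had longer regions, with median lengths of 2952 and 3107 bases against 1064 and 1323 without, and the part of length in these medians was not tested.

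Among the genes that rose most with both siRNAs, several stood apart from both mock and siControl. DHRS2 (chromosome 14, 23630115 to 23645639), a short-chain dehydrogenase, was at 15.7 and 14.1 CPM in mock, at 19.8 and 18.6 in siControl, at 34.1 and 35.4 in siTotal1 and at 184 and 174 in siTotal2. Every siTotal library was above every control library, and siTotal2 was far above siTotal1. DHRS2 rose 5.29-fold by the mean (log2 2.403, SE 0.06, adjusted p = 2.6e-28), 2.33-fold with siTotal1 and 12-fold with siTotal2. GASK1B (chromosome 4, 158124474 to 158173318), a Golgi-associated kinase family protein, was at 1.73 and 2.31 CPM in mock, at 2.39 and 1.48 in siControl, at 5.36 and 5.32 in siTotal1 and at 4.24 and 4.72 in siTotal2. It rose 2.45-fold (log2 1.29, SE 0.15, adjusted p = 2e-08), with no overlap with either control group and with 55 to 193 reads per library behind the values. IFIT2 (chromosome 10, 89283694 to 89309276), an interferon-induced antiviral gene, was at 1.61 and 1.44 CPM in mock and at 3.14, 3.03, 2.74 and 2.96 in the siTotal libraries, while siControl was lowest at 0.815 and 0.808. It rose by 0.95 on the log2 scale (SE 0.16, adjusted p = 9.8e-06), and fell by 0.91 in siControl against mock (adjusted p = 0.0013).

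ABCA1, the exporter of cellular cholesterol, rose by 0.90 (log2, adjusted p = 3.9e-06) and NOS1AP, an adaptor of neuronal nitric oxide synthase, by 0.90 (adjusted p = 5.9e-07). Both fell in siControl against mock, by 0.48 and 0.79. For other leading rises the non-targeting siRNA gave a rise of its own. KRTAP2-3, a hair keratin-associated protein with closely similar family members that could share its reads, was at 3.67 and 3.71 CPM in mock, at 18.2 and 16.7 in siTotal1 and at 11.6 and 8.501 in siTotal2, but at 18.9 and 18.6 in siControl. It rose by 1.84 in siTotal and by 2.34 in siControl. ANGPT2, a ligand of the endothelial receptor TIE2, rose by 1.25 in siTotal and by 1.79 in siControl. GRHL3, an epithelial transcription factor, rose by 1.47 and 1.11, ECM1, a matrix glycoprotein, by 1.31 and 0.85, and SLC6A20, an imino acid transporter, by 1.08 and 0.82 in the same order.

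The falls were smaller. MGAT4A (chromosome 2, 98619106 to 98731126), which adds branches to N-glycans, was at 11.5 and 11.4 CPM in mock, at 12.4 and 12.9 in siControl, at 5.997 and 6.33 in siTotal1 and at 5.21 and 6.03 in siTotal2. It fell by 0.96 (SE 0.08, adjusted p = 8.9e-12), to 0.516 of the mock level, and no siTotal library reached a control library. SLC19A2 (chromosome 1, 169463909 to 169486003), a thiamine transporter whose promoter stretch is printed above, was at 29.2 and 30.6 CPM in mock, at 35.3 and 37.2 in siControl and at 18.99, 18.7, 17.8 and 17.3 in the siTotal libraries. It fell by 0.72 (SE 0.06, adjusted p = 1.1e-12), and siControl rose against mock by 0.28 (adjusted p = 0.0003). VEGFA (chromosome 6, 43770184 to 43786487), the angiogenic growth factor induced by hypoxia, was at 51.4 and 51.01 CPM in mock, at 53.2 and 53.8 in siControl and at 30.9, 34.9, 31.9 and 35.5 in the siTotal libraries. It fell by 0.62 (SE 0.05, adjusted p = 3.2e-12), again with siTotal below every control library.

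RIMKLA, a synthetase of N-acetylaspartylglutamate, fell by 0.80 (adjusted p = 1.3e-07) and was at -0.03 in siControl (adjusted p = 0.84). CYP4F3, a hydroxylase of leukotriene B4, fell by 0.72, ZP3, an egg-coat glycoprotein, by 0.66, LYSMD1 by 0.67 and ZNF25, a zinc finger gene, by 0.75, and in siControl they were at 0.34, 0.06, 0.19 and 0.17, none called. In a further set siControl fell as well. ID3, an inhibitor of basic helix-loop-helix factors, was at 91.8 and 93.3 CPM in mock, at 59.2 and 53.3 in siControl and at 46.4, 46.5, 50.8 and 45.4 in the siTotal libraries. It fell by 0.97 in siTotal and by 0.72 in siControl. FABP6, an ileal bile acid carrier, fell by 1.204 in siTotal and by 1.68 in siControl. The immediate early gene FOS fell by 0.90 and 0.93, IER5L by 0.95 and 0.95, and MYO5C, a class V myosin, by 0.82 and 0.57. PROM2, a prominin, fell by 0.99 in siTotal and was at -0.28 in siControl (adjusted p = 0.093).

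**Figure D3:**
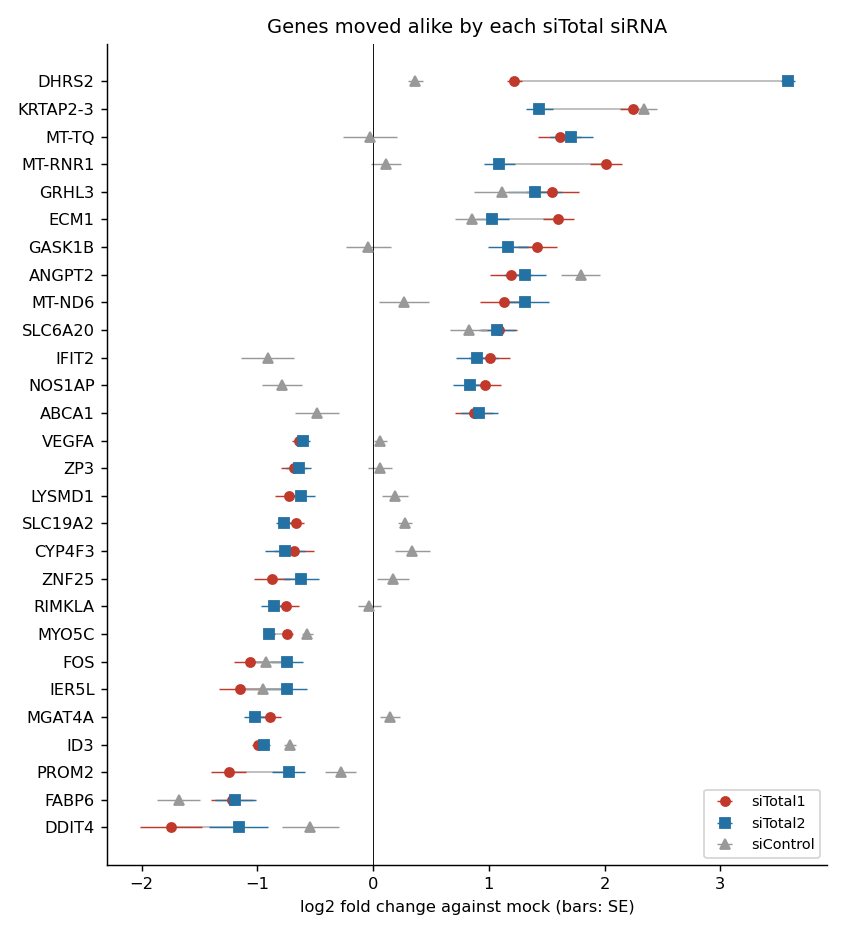
Log2 fold change against mock for 28 leading genes, with siTotal1 as circles, siTotal2 as squares, siControl as triangles and bars for the standard error. MGAT4A, VEGFA, GASK1B and MT-TQ have siControl near 0, while KRTAP2-3, ANGPT2, FABP6 and FOS have siControl beside or beyond the siTotal values.

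The 28 gene lists held 609 different genes, and their counts are read against the 16.6% and 14.2% of all tested genes called higher and lower. The median log2 fold change over all tested genes was 0.0032. Among lists with at least 10 tested members, those with the largest shares higher were p53 targets (72.4%), mesenchymal and matrix genes (54.2%), lysosome and autophagy genes (53.8%), inflammatory genes (47.1%) and interferon response genes (46.7%). Those with the largest shares lower were the ATF4 and amino acid response (55.6%), nucleotide synthesis and one-carbon genes (52.4%), the nuclear respiratory chain (51.6%), DNA replication (47.5%), fatty acid synthesis (45.5%) and glycolysis (44.4%).

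**Figure D4:**
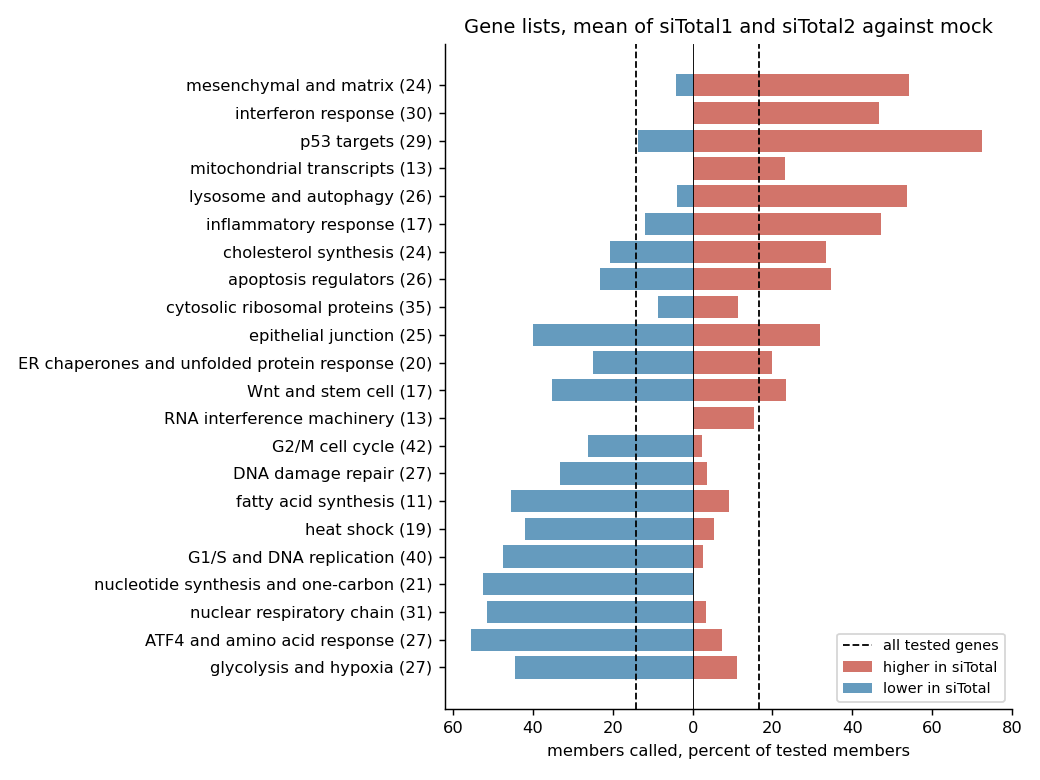
Percent of tested list members called higher (right) and lower (left) in siTotal against mock, for lists with at least 10 tested members, ordered by median log2 fold change, with the number tested in parentheses. Dashed lines mark 16.6% higher and 14.2% lower among all tested genes.

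Of 29 p53 target genes, 21 were higher and 4 lower in siTotal, with 12 higher with each siRNA and 0 lower, and the median was 0.23. Without mock replicate 2, 2 were lower. The median was 0.30 for siTotal1, 0.17 for siTotal2 and 0.03 for siControl, where 11 were higher and 11 lower. SESN1, a sestrin that restrains mTORC1, was at 17.8 and 19.9 CPM in mock, at 12.3 and 14.1 in siControl, at 28.8 and 29.6 in siTotal1 and at 25.8 and 25.9 in siTotal2. It rose by 0.55 (SE 0.06, adjusted p = 3.4e-09) and fell by 0.51 in siControl, with no overlap between the groups. FAS, the death receptor, was at 16.6 and 17.5 CPM in mock, at 18.8 and 18.1 in siControl and at 26.5, 24.1, 23.99 and 23.7 in the siTotal libraries. It rose by 0.53 (adjusted p = 5.8e-09), with siControl at 0.12 (adjusted p = 0.18). ZMAT3, an RNA-binding p53 target, rose by 0.53 (adjusted p = 3.8e-07) and was at 0.05 in siControl. PPM1D, a phosphatase that feeds back on p53, rose by 0.32 in siTotal and by 0.27 in siControl.

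Of 30 interferon response genes, 14 were higher and 0 lower, 8 were higher with each siRNA, and the median was 0.30. It was 0.11 for siTotal1, 0.42 for siTotal2 and -0.05 for siControl, where 7 were higher and 9 lower. Leaving out mock replicate 1 left 9 members higher. IFIT1, an RNA-binding antiviral protein, was at 5.196 and 5.71 CPM in mock, at 4.86 and 4.45 in siControl, at 8.16 and 6.696 in siTotal1 and at 10.1 and 10.8 in siTotal2. All siTotal libraries were above all controls, and IFIT1 rose by 0.69 (SE 0.10, adjusted p = 5.2e-07), more with siTotal2 than with siTotal1 by 0.49 (adjusted p = 0.00027). ISG20, an RNA exonuclease, rose by 0.71 and OASL, an oligoadenylate synthetase-like protein, by 0.62, while siControl rose by 1.06 and 1.07 for these 2. Of 17 inflammatory genes 8 were higher and 2 lower, with 3 and 0 alike with each siRNA, and the median was 0.11, with siControl at 0.50 (9 higher and 2 lower). DESeq2 called 5 of them higher. ICAM1, an adhesion molecule induced by NF-kB, was at 9.84 and 10.3 CPM in mock, at 7.54 and 8.68 in siControl, at 18.1 and 18.6 in siTotal1 and at 13.7 and 13.99 in siTotal2. It rose by 0.66 (adjusted p = 3e-09) and fell by 0.31 in siControl.

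Of 24 mesenchymal and matrix genes, 13 were higher and 1 lower, and 9 were higher and 1 lower with each siRNA. The median was 0.38, with 0.45 for siTotal1, 0.13 for siTotal2 and 0.06 for siControl, where 10 were higher and 6 lower. Without mock replicate 1, 13 were higher and 1 lower, and without mock replicate 2, 13 and 3. FN1 (chromosome 2, 215360440 to 215436172), which encodes fibronectin, was at 31.3 and 29.03 CPM in mock, at 32.04 and 29.7 in siControl, at 64.5 and 58.98 in siTotal1 and at 53.4 and 55.9 in siTotal2. It rose 1.92-fold (log2 0.94, SE 0.05, adjusted p = 1.2e-16), with siControl at 0.03. ZEB1, a repressor of epithelial genes, was at 3.97 and 4.26 CPM in mock, at 2.08 and 1.83 in siControl, at 8.75 and 8.15 in siTotal1 and at 6.04 and 5.795 in siTotal2. It rose by 0.78 (adjusted p = 1.9e-07) and fell by 1.07 in siControl. VIM, an intermediate filament of mesenchymal cells, was at 6.35 and 4.09 CPM in mock, at 1.26 and 1.24 in siControl and at 8.16, 8.18, 9.58 and 8.71 in the siTotal libraries. It rose by 0.71 (adjusted p = 1.5e-05), by 1.08 without mock replicate 1 and by 0.45 without mock replicate 2. LAMB3, a laminin chain, rose by 1.098 in siTotal and by 1.54 in siControl. Fibroblast marker reads differed between these libraries (494 and 23 in mock, 8 and 19 in siControl, 16 and 10 in siTotal1, 221 and 118 in siTotal2, without COL1A1). Of the 5 fibroblast markers tested 0 were called, or 1 higher without mock replicate 1 and 2 lower without mock replicate 2. Their part in the rises of this list was not tested.

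Of 25 epithelial junction genes 8 were higher and 10 lower, with 1 higher and 5 lower with each siRNA, and the median was 0.01. In siControl 14 were higher and 3 lower, with a median of 0.14. The number higher was 4 when mock replicate 1 was left out. OVOL1, an epithelial transcription factor, fell by 0.45 (adjusted p = 2.7e-06) and rose by 0.27 in siControl. ELF3, another, was at 39.6 and 47.6 CPM in mock, at 40.7 and 49.8 in siControl and at 32.4, 35.1, 24.2 and 27.4 in the siTotal libraries. It fell by 0.56 (adjusted p = 0.0032), and PKP3, a desmosomal plakophilin, by 0.23. OCLN, which encodes the tight junction protein occludin, rose by 0.44 in siTotal and by 1.103 in siControl. In the Wnt and stem cell list, 4 of 17 were higher and 6 lower, 3 and 4 with each siRNA, with a median of -0.006. In siControl 4 were higher and 10 lower, with a median of -0.39. PROM1, the stem cell marker CD133, was at 37.6 and 39.2 CPM in mock, at 36.1 and 35.4 in siControl, at 24.3 and 25.8 in siTotal1 and at 23.2 and 24.3 in siTotal2. It fell by 0.66 (SE 0.05, adjusted p = 7.9e-13), with siControl at -0.10. NOTUM, a secreted Wnt deacylase, fell by 0.66 in siTotal and by 0.52 in siControl. SOX4 fell by 0.51 in siTotal and by 1.62 in siControl, and DKK1, a secreted Wnt inhibitor, rose by 0.37 and 2.11.

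The lysosome and autophagy list had 14 of 26 members higher and 1 lower, and 9 higher with each siRNA. Its median was 0.16, with siControl at 0.13 (12 higher and 8 lower). NEU1, the lysosomal sialidase, was at 27.9 and 30.02 CPM in mock, at 46.02 and 48.5 in siControl and at 50.2, 46.9, 44.5 and 42.9 in the siTotal libraries. It rose by 0.67 in siTotal (adjusted p = 5.5e-13) and by 0.71 in siControl. MAP1LC3B, which coats autophagosomes, rose by 0.60 and 0.55, NPC1, the lysosomal cholesterol transporter, by 0.42 and 0.40, and GABARAPL1, a relative of LC3, by 0.33 and 1.39 in the same order.

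In the ATF4 and amino acid response list 15 of 27 were lower and 2 higher, 9 were lower and 1 higher with each siRNA, and the median was -0.17. It was -0.07 for siTotal1, -0.26 for siTotal2 and 0.09 for siControl, where 13 were higher and 4 lower. DDIT4 (chromosome 10, 72273920 to 72276036), a stress-induced inhibitor of mTORC1, was at 83.7 and 113 CPM in mock, at 50.4 and 84.4 in siControl, at 27.1 and 31.5 in siTotal1 and at 43.5 and 44.3 in siTotal2. All 4 siTotal libraries were below all 4 control libraries. DDIT4 fell by 1.45 (SE 0.22, adjusted p = 0.0027), to 0.365 of the mock level, with siControl at -0.54 (adjusted p = 0.14). Against siControl, siTotal1 was at -1.20 (adjusted p = 0.013), while siTotal2, at -0.62, was not called (adjusted p = 0.11). MTHFD2, the mitochondrial folate-cycle dehydrogenase, was at 412 and 427 CPM in mock, at 407 and 411 in siControl and at 350.4, 323, 327 and 316 in the siTotal libraries. It fell by 0.35 (SE 0.04, adjusted p = 6.4e-10), with siControl at -0.04. PSAT1, of serine synthesis, fell by 0.38 in siTotal and by 0.49 in siControl. ATF3, a stress-induced transcription factor, went the other way: it rose by 0.63, and rose by 1.98 in siControl.

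Of 21 nucleotide synthesis and one-carbon genes 11 were lower and 0 higher, and 7 were lower with each siRNA, with a median of -0.11 and siControl at -0.13 (1 higher and 13 lower). MTHFD1, a folate enzyme, fell by 0.31, MTR, the methionine synthase, by 0.30 and PAICS, of purine synthesis, by 0.28, and in siControl they fell by 0.35, 0.55 and 0.27. Of 27 glycolysis and hypoxia genes 12 were lower and 3 higher, 8 and 2 with each siRNA, with a median of -0.19 and siControl at -0.10 (3 higher and 10 lower). Without mock replicate 2, 7 were lower. HK2, a hexokinase, was at 123 and 134 CPM in mock, at 112 and 128 in siControl and at 95.6, 99.3, 94.1 and 100.3 in the siTotal libraries. It fell by 0.40 (adjusted p = 3.6e-07), with siControl at -0.10 (adjusted p = 0.15). GAPDH, whose processed copies could share its reads, fell by 0.23 in siTotal and by 0.23 in siControl. SLC2A3 (chromosome 12, 7919230 to 7936275), the glucose transporter GLUT3, went the other way: it was at 6.41 and 9.34 CPM in mock, at 29.2 and 35.02 in siControl, at 121 and 104 in siTotal1 and at 13.9 and 14.7 in siTotal2. It rose by 2.37 (SE 0.16, adjusted p = 3.2e-05), by 3.86 with siTotal1 and 0.88 with siTotal2, and by 2.04 in siControl, so siControl lay between the siTotal groups.

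Genes of the cell cycle, among the best known NF-Y targets, changed little in size. Of 40 G1/S and DNA replication genes 19 were lower and 1 higher, and 8 were lower with each siRNA, with a median of -0.09. In siControl 23 were lower and 6 higher, with a median of -0.17. RRM2, the small subunit of ribonucleotide reductase, was at 593 and 604 CPM in mock, at 678 and 669 in siControl, at 525 and 483 in siTotal1 and at 546 and 516 in siTotal2. It fell by 0.21 (SE 0.04, adjusted p = 2.2e-05) and rose by 0.17 in siControl, and no siTotal library reached mock. POLD1, the catalytic subunit of DNA polymerase delta, fell by 0.25, RFC4, a clamp loader subunit, by 0.19 and MCM6, a helicase subunit, by 0.17, and each fell in siControl too, by 0.23, 0.15 and 0.34. RFC4 was not called without mock replicate 1 (adjusted p = 0.055). Of 42 G2/M genes 11 were lower and 1 higher, and 3 were lower with each siRNA, with a median of -0.05, made of -0.06 for siTotal1 and 0.009 for siTotal2. In siControl 18 were lower and 2 higher, with a median of -0.10. Without mock replicate 1, and likewise without mock replicate 2, 7 were lower. CENPA, the centromeric histone, was at 25.7 and 27.8 CPM in mock, at 24.4 and 25.4 in siControl, at 16.6 and 16.8 in siTotal1 and at 24.7 and 21.8 in siTotal2. It fell by 0.44 (adjusted p = 8.2e-07), more with siTotal1 by 0.47 (adjusted p = 3.5e-06). KIF11, a spindle kinesin, fell by 0.25 and BUB1B, of the spindle checkpoint, by 0.17. Of 27 DNA repair genes 9 were lower and 1 higher, with a median of -0.06, and in siControl 11 were lower and 2 higher, with a median of -0.07. FANCG, a Fanconi anemia gene, was at 70.5 and 68.95 CPM in mock, 74.1 and 71.99 in siControl and 54.6, 55.5, 50.8 and 50.2 in the siTotal libraries. It fell by 0.40 (SE 0.04, adjusted p = 5.4e-10), with siControl at 0.07, while FANCL, of the same pathway, fell by 0.38 in siTotal and by 0.49 in siControl.

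In lipid synthesis, 5 of 11 fatty acid genes were lower and 1 higher, 3 lower with each siRNA, and in siControl 5 were lower and 1 higher. Without mock replicate 2, 3 were lower. FASN, fatty acid synthase, was at 1866 and 1872 CPM in mock, at 1880 and 1888 in siControl, at 1360 and 1472 in siTotal1 and at 1616 and 1562 in siTotal2. It fell by 0.32 (SE 0.04, adjusted p = 2.1e-08), with siControl at 0.01. SCD, the stearoyl-CoA desaturase, fell by 0.22 with siControl at 0.07, and FADS1, another desaturase, by 0.40 with siControl falling by 0.40. Of 24 cholesterol synthesis genes 8 were higher and 5 lower, with a median of 0.08 and siControl at 0.17 (15 higher and 4 lower). Without mock replicate 1, 4 were higher, and without siTotal2 replicate 2, 5. MSMO1, a sterol methyl oxidase, was at 56.2 and 62.6 CPM in mock, at 72.98 and 77.9 in siControl, at 93.1 and 86.8 in siTotal1 and at 67.9 and 65.02 in siTotal2. All 4 siTotal libraries were above both mock libraries, and MSMO1 rose by 0.38 in siTotal and by 0.35 in siControl.

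Among chaperones, 8 of 19 heat shock genes were lower and 1 higher (in siControl 4 and 6), and without mock replicate 2, 4 were lower. HSPA9, the mitochondrial HSP70, fell by 0.20 and HSPH1, an HSP110, by 0.20. In siControl they were at -0.11 (adjusted p = 0.032) and -0.06 (adjusted p = 0.26). HSPA1B, whose reads may be split with its near-identical copy HSPA1A, fell by 0.27 and rose by 0.21 in siControl. Of 20 endoplasmic reticulum genes 4 were higher and 5 lower (1 higher without mock replicate 1, 7 higher without siTotal1 replicate 2, 3 lower without mock replicate 2), and in siControl 6 were higher and 6 lower. CALR, the chaperone calreticulin, fell by 0.24 and MANF, a secreted stress factor, by 0.20. DNAJB11 went the other way and rose by 0.14 (adjusted p = 0.0086), with siControl at -0.04. PDIA4 fell by 0.24 in siTotal and by 0.29 in siControl. Of 26 apoptosis regulators 9 were higher and 6 lower (5 higher without mock replicate 1, 3 lower without mock replicate 2 or without siTotal1 replicate 1), and in siControl 12 were higher and 4 lower. BCL2L1, which encodes BCL-XL, was at 239 and 245 CPM in mock, at 298 and 287 in siControl, at 438 and 405 in siTotal1 and at 293 and 283 in siTotal2. It rose by 0.52 (adjusted p = 8.8e-14), with a difference between the siRNAs of 0.55 (adjusted p = 1.5e-13). In siControl BCL2L1 rose by 0.27, and siTotal2 was at -0.025 against siControl (adjusted p = 0.67). BID fell by 0.23 with siControl at 0.08, and CASP8 rose by 0.18 in siTotal and by 0.265 in siControl. Of 35 cytosolic ribosomal protein genes 4 were higher and 3 lower, and 0 moved alike with each siRNA (in siControl 6 were higher and 3 lower). Leaving out single libraries put the 4 between 1 (without mock replicate 1) and 9 (without siTotal1 replicate 2). Of 13 genes of the RNA interference machinery 2 were higher and 0 lower, with 0 moving alike, and in siControl 2 were higher and 4 lower.

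Mitochondrially encoded RNAs rose unevenly. The mitochondrial genome is transcribed as long precursors from both strands, the minus strand carrying MT-ND6 and a group of tRNA genes and the plus strand the rest. Of 31 tested mitochondrial genes 17 were higher and 0 lower, and 12 were higher with each siRNA. MT-ND6 (mitochondrial genome, 14149 to 14673, minus strand), a subunit of complex I, was at 78.8 and 61.1 CPM in mock, at 67.2 and 102 in siControl, at 143 and 165 in siTotal1 and at 164 and 183 in siTotal2. All 4 siTotal libraries were above all 4 control libraries. MT-ND6 rose 2.33-fold (log2 1.22, SE 0.19, adjusted p = 0.0033), with siControl at 0.27 (adjusted p = 0.39). MT-TQ, the minus-strand glutamine tRNA gene, was at 1.37 and 0.963 CPM in mock, 1.16 and 1.16 in siControl, 3.25 and 3.98 in siTotal1 and 3.91 and 3.86 in siTotal2, which rested on 40 to 151 reads. It rose 3.16-fold (adjusted p = 6.4e-10). In all, 7 of the 8 minus-strand genes tested were higher, with a median of 1.48 and MT-TS1, the other, at 0.62 (adjusted p = 0.074).

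On the plus strand both rRNAs and 6 of 9 tRNA genes were higher, and most mRNAs were not called. The median was 0.49 over the 23 plus-strand genes, 0.89 over the tRNA genes and 0.19 over the mRNAs. MT-TV, the valine tRNA gene of this strand, rose most of all tested mitochondrial genes, by 1.77, with siControl at 0.27. MT-RNR1, the small ribosomal RNA, was at 588 and 539 CPM in mock, at 519.6 and 696 in siControl, at 2315 and 2226 in siTotal1 and at 1168 and 1230 in siTotal2. It rose 2.93-fold (log2 1.55, SE 0.12, adjusted p = 0.00011) and more with siTotal1 than with siTotal2, by 0.92 (adjusted p = 0.0013). MT-RNR2, the large one, rose by 0.83 (adjusted p = 0.002). Of 12 plus-strand mRNAs 2 were higher, MT-ND2 by 0.58 (adjusted p = 0.02) and MT-ND3 by 0.55 (adjusted p = 0.016). Neither was called without mock replicate 2 (adjusted p = 0.13 and 0.11), nor MT-ND3 without mock replicate 1 (0.064) or MT-ND2 without siTotal2 replicate 1 (0.051). MT-CO1, the subunit of complex IV with the highest count of the 12, was at 0.006 (adjusted p = 0.98). The share of all reads on mitochondrial genes was 4.58% and 3.83% in mock, 3.9% and 4.98% in siControl, 3.93% and 4.94% in siTotal1 and 5.75% and 5.54% in siTotal2. No source used here gives the strand setting of the counting, and nuclear copies of mitochondrial genes exist, so the split between strands and genes is uncertain. The RNA was selected by its poly(A) tail, and whether reads on rRNA and tRNA genes follow the amount of mature rRNA and tRNA was not tested.

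The nuclear genes of the respiratory chain had 16 of 31 lower and 1 higher, 6 lower with each siRNA and a median of -0.13, with siControl at -0.10 and 14 lower. NDUFV1, of complex I, fell by 0.25 in siTotal and by 0.33 in siControl. NDUFA10, also of complex I, fell by 0.22, with siControl at 0.02. CYC1, cytochrome c1, was at 312 and 323 CPM in mock, at 297 and 274 in siControl, at 238 and 233 in siTotal1 and at 283 and 262 in siTotal2. It fell by 0.33, more with siTotal1 by 0.21 (adjusted p = 0.00014). CYC1 also fell in siControl, by 0.15 (adjusted p = 0.0042), and siTotal2 was at -0.07 against siControl (adjusted p = 0.2).

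**Figure D5:**
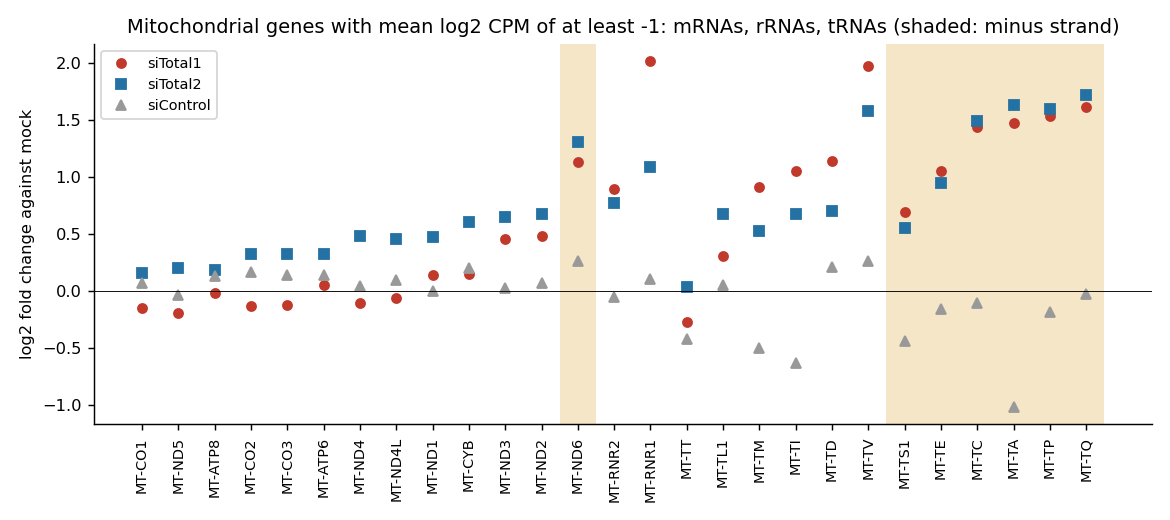
Log2 fold change against mock of the 27 mitochondrial genes with a mean log2 CPM of at least -1 (4 lower ones are left out), in siTotal1 (circles), siTotal2 (squares) and siControl (triangles). Shaded genes lie on the minus strand, where MT-TQ and MT-ND6 sit above 1 with both siRNAs. The plus-strand MT-TV and MT-RNR1 do so too, while the plus-strand mRNAs sit lower, with MT-CO1 near 0.

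The siRNAs also disagreed. Tested directly, siTotal1 and siTotal2 differed in 7775 genes (43.9%), of which 867 differed by at least 2-fold. The root mean square log2 difference between them was 0.361. Against mock it was 0.33 for siTotal1, 0.239 for siTotal2 and 0.345 for siControl. For the mean of the siTotal siRNAs, in which changes particular to 1 siRNA are averaged down, it was 0.225. In 854 genes (4.82%) the siRNAs were called in opposite directions against mock, 417 higher with siTotal1 and 437 higher with siTotal2, and the mean called 148 of them. PSMB9, an immunoproteasome subunit, was at 2.88 and 3.202 CPM in mock, at 2.08 and 2.18 in siControl, at 1.03 and 1.37 in siTotal1 and at 7.56 and 6.92 in siTotal2. The mean of the siRNAs was at -0.04 (adjusted p = 0.87), although each siTotal group lay outside the mock values on its own side. SUSD2, a membrane protein with a sushi domain, was at 22.1 and 23.5 CPM in mock, at 3.71 and 3.34 in siControl, at 10.6 and 11.9 in siTotal1 and at 59.9 and 60.6 in siTotal2. HKDC1, a hexokinase relative, was at 2.88 and 2.82 CPM in mock, at 7.11 and 7.17 in siTotal1 and at 1.63 and 2.14 in siTotal2. In both genes too the siTotal groups lay on either side of mock without overlap. MAP2, a microtubule-associated protein of neurons and the neural marker called higher (1 higher and 1 lower of 5 tested), was at 8.77 and 8.96 CPM in mock, at 10.3 and 9.81 in siControl, at 11.4 and 10.4 in siTotal1 and at 19.8 and 22.6 in siTotal2. It rose by 0.78, with a difference between the siRNAs of 0.96 (adjusted p = 6.2e-12).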

How the data were processed

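RNA-seq of HCT116 cells was deposited as 1 table of raw read counts per gene for 12 libraries in 6 groups of 2. Per the submitters' processing notes, the authors used STAR 2.4.0f1 and featureCounts with the genome build hg19. No source used here gives the annotation release, the strand setting or the featureCounts version. Of 63677 identifiers, 52181 matched a current symbol. Printed positions come from GENCODE on GRCh38, found by identifier, and promoters and motifs from RefSeq on GRCh38.p14. No coordinate was converted from hg19.

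Genes passing edgeR's filterByExpr (minimum count 10, minimum total 15) numbered 17730. Counts were scaled by TMM, and edgeR 4.0.16 (R 4.3.3) fitted 1 robust quasi-likelihood model of the 6 groups, with 6 residual degrees of freedom and a common biological coefficient of variation of 3.57%. Contrasts were tested 2-sided, with Benjamini-Hochberg adjustment over all tested genes, and called at an adjusted p under 0.05. A gene alike with each siRNA was called in both single contrasts in 1 direction. Lists are given as counts and medians without a set test. In data simulated for siTotal against mock (17332 genes, 50 changed per size), 46% of 1.2-fold, 64% of 1.5-fold, 86% of 2-fold and 98% of 4-fold changes were recovered, and 15 of 162 calls were false. Both siTotal groups were given the same change there, and all other genes were alike in every group. In the real data the siTotal siRNAs differed in 43.9% of genes, so these rates cannot be carried over to them.

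The text names NFYA, NFYB and NFYC. Beyond these it names, at a mean log2 CPM of at least 1, the 10 rises and 10 falls largest in the smaller of the siRNAs' changes. The same was done over all 4 contrasts with mock and siControl for 8 each way, for 3 genes each way that the siRNAs moved oppositely, and for up to 4 members of each list (106 genes in all, 2 of which are not reported here). MT-TV, MT-TS1, MT-RNR2, MT-CO1 and the marker genes given as reads fall outside this rule and were chosen after their values were seen. The members and the lists were chosen with earlier results of these data known. Alternatives were DESeq2 1.42.0, relative log expression size factors, other filters, fewer libraries, a replicate block, a test against a 1.5-fold change, each siRNA as 1 replicate and leaving out each library.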

Additional observations from a re-analysis of the deposited data

Results flagged for a closer look

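In 6 genes named by rule the siRNAs moved the level in opposite directions against mock, and the test of siTotal1 against siTotal2 passed its threshold in each. The siTotal1 minus siTotal2 difference was 1.759 on the log2 scale for MYPN (adjusted p = 3.9e-07 by edgeR's quasi-likelihood test with Benjamini-Hochberg adjustment), a sarcomeric protein at 0.833 and 1.23 CPM in mock, 2.03 and 1.77 in siTotal1 and 0.554 and 0.562 in siTotal2. It was 1.91 for HKDC1 (adjusted p = 7.5e-13) and 1.113 for TRIM16L (adjusted p = 2.2e-13), whose reads may be split with its close relative TRIM16. It was -2.589 for PSMB9 (adjusted p = 1e-14), -2.2 for the histone gene H2AC25 (adjusted p = 3.8e-13) and -2.416 for SUSD2 (adjusted p = 7.6e-23). The genes were chosen for this opposition, so the p-values describe them and do not stand as separate evidence. In siControl against mock, MYPN rose by 2.91 and SUSD2 fell by 2.69, PSMB9 fell by 0.51, and the other 3 were not called.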

How the results depend on the processing

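Against mock, 2939 genes were higher and 2516 lower. Each siRNA as 1 replicate gave 0 and 0 in edgeR (smallest adjusted p 0.5), and 52 and 37 in DESeq2, an alternative chosen after seeing the data. NFYA was then at -0.304 (adjusted p = 0.58) and -0.299 (adjusted p = 0.46). The test against a 1.5-fold change gave 70 higher and 23 lower for siTotal against mock, 14 and 4 alike with each siRNA, 8 and 1 alike against both controls, and 228 and 425 for siTotal1 against siTotal2, with NFYA at -0.291 (adjusted p = 1). Leaving out 1 library gave 1759 to 3142 higher and 1750 to 2644 lower, 565 to 1058 and 554 to 835 alike, 256 to 430 and 234 to 343 alike against both controls, 3378 to 4136 and 2987 to 3666 between the siRNAs, and NFYA from -0.341 to -0.241. The smallest numbers of genes higher against mock came without mock replicate 1. DESeq2, other size factors and other filters stayed within 1.5 times of each of these counts, with DESeq2 at 2293 higher and 2050 lower. So did leaving out siControl and siLong, except that the counts alike against both controls could not be had without siControl. Direction turned in 4 named genes, none called by the mean. Leaving out 1 library put MYPN (0.02) between -0.254 and 0.304, TRIM16L (-0.006) between -0.057 and 0.042, PSMB9 (-0.04) between -0.146 and 0.053 and H2AC25 (-0.019) between -0.091 and 0.067. With each siRNA as 1 replicate, DESeq2 and edgeR put TRIM16L at 0.09 and 0.083, PSMB9 at 0.464 and 0.466 and H2AC25 at 0.36 and 0.359. The cause was not tested. Of the 105 named genes besides NFYA, the 4 that turned direction had no call by the mean to lose. The other 101 all lost their call with each siRNA as 1 replicate in edgeR. In DESeq2 70 lost it and against a 1.5-fold change 83, while 7 lost it without mock replicate 1 and 5 without mock replicate 2.

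Same-numbered libraries deviated together in some pairs of groups and not in others. The correlation of replicate differences over 12318 genes was -0.261 for mock and siTotal1, -0.006 for mock and siTotal2, 0.193 for siTotal1 and siTotal2, 0.238 for mock and siControl and 0.24 for siControl and siTotal2, and over all 15 pairs it ran from -0.261 to 0.24. The replicate block gave 2957 higher and 2548 lower, with 1033 and 845 alike and NFYA at -0.291, and the numbers are not taken to pair the samples. Some named genes rested on few reads, such as MT-TQ on 40 to 151 per library. The alternatives that leave out 1 library keep the 17730 genes.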

Other observations

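The lists not described above were small. Of 6 tested intestinal differentiation genes 2 were higher and 1 lower in siTotal, with 0 alike with each siRNA. Of 6 tested colon epithelial markers 2 were lower, with 0 alike with each siRNA, and of 2 tested blood markers 0 were called. SNAP25, a synaptic gene, had 34 and 21 reads in mock, 5 and 9 in siControl, 11 and 14 in siTotal1 and 72 and 61 in siTotal2.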
